A study of Mus musculus with 8 samples.

Results

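The 80 genes described here encode the proteins of the cytosolic ribosome. They were chosen by symbol among protein-coding genes: Rps or Rpl followed by a number, together with Rplp0, Rplp1, Rplp2 and Rpsa. After the number only a letter a, l, x or y and a further digit were allowed. Symbols with other endings, such as -ps models, Rps27rt, Rpl36al and the Rps6k kinases, were left out. A mean of at least 1 FPKM over the 3 vehicle libraries of the first table was required. FPKM are fragments scaled to the length of the gene model and to the library. Of 83 genes that met the symbol rule among the 55450 genes of that table, 80 reached this level. They comprised 32 small-subunit genes, 45 large-subunit genes and 3 genes of the P stalk, and lay on 19 chromosomes. The 3 that did not reach it were Rpl3l, Rpl39l and Rpl10l, relatives of Rpl3, Rpl39 and Rpl10. Rpl3l was listed at 0.0989, 0.150 and 0.366 FPKM in vehicle replicates 1 to 3. Rpl39l and Rpl10l were listed at 0 in vehicle replicates 1 and 2 and at 0.263 and 0.198 FPKM in vehicle replicate 3.

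The RNA came from cultures that the labels describe as bone marrow-derived dendritic cells of mice with SS dry eye, treated with phosphate-buffered saline (vehicle) or with recombinant S100A8/A9, a pair of calcium-binding proteins that myeloid cells release in inflammation. The study asked which signalling pathways S100A8/A9 acts through in these cells. Each of the 2 groups held 4 libraries. The labels give no strain, age, dose or treatment time, and use an abbreviation in the sample titles that commonly stands for macrophages. They do not say whether libraries came from separate mice or cultures, so the p-values measure only the spread between these libraries. All groups shared the disease model.

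Each cytosolic ribosome carries a single copy of most of these proteins, which are translated in the cytosol and imported into the nucleolus, where they are assembled with ribosomal RNA. Their messages begin with a run of pyrimidines, the 5′ terminal oligopyrimidine (TOP) tract, through which mTORC1 and the RNA-binding protein LARP1 control their translation. Messenger RNA levels therefore do not report how much ribosomal protein is made. In dendritic cells, activation is known to go with a large demand for protein synthesis.

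Start-site sequences from RefSeq (GRCm38.p6) were matched by symbol for 60 of the 80 genes, giving 71 windows of 300 bases (250 bases before the annotated start and 50 after). The 30-base stretches below, read 5′ to 3′ on the gene's strand, are each centred on a pyrimidine run near the start. They are therefore not aligned at the start, and those of Rpl27, Rpl22, Rpl24, Rpl41 and Rpl36a do not include it. Capitals mark the longest run of C and T within 40 bases of the start. In Rpl27 the run goes on beyond that limit, and only the part within it is marked. Rpl38, Rpl36a, Rpl27 and Rpl22 stand for genes whose values are described below, and Rps10 and Rpl24 for genes that differed most between the study's 2 tables. Rpl41 and Rps16 are shown because their longest runs were short (4 and 5 bases), as was that of Rpl24 (6 bases).
Rpl38 (chr11:114668568-114668597, plus strand): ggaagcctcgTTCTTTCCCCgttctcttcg
Rpl36a (chrX:134585672-134585701, plus strand): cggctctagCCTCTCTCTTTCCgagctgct
Rpl27 (chr11:101442194-101442223, plus strand): tcatcctcgctCCTCCCTCCacacgccgga
Rpl22 (chr4:152325679-152325708, plus strand): ccgtctgaCTCCTCCCTTTCCCgacagccg
Rps10 (chr17:27635227-27635256, minus strand): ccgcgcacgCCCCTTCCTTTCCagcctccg
Rpl24 (chr16:55966227-55966256, plus strand): acctcaaacccaCTCCCCgccaatgctgta
Rpl41 (chr10:128549185-128549214, minus strand): ctgtctcgagcagCCCCgccctaagggacg
Rps16 (chr7:28350665-28350694, plus strand): gccgtaaagcccgCTTCTgtcgtgacgtag

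Runs of at least 8 pyrimidines within 40 bases of the start were found in 50 of the 71 windows (70.4%), against 29.3% of all 32851 windows in the table. The median longest run was 10 bases in these genes and 6 over all windows. Counting the annotated start as 0, the run of 10 in Rpl38 began at position -2 and the run of 13 in Rps10 at position -3. The other printed runs began farther away, at -40 in Rpl27 (cut at the limit), -39 in Rpl22, -36 in Rpl24, -33 in Rpl41, -11 in Rps16 and 27 in Rpl36a. The motif CTTTCC, which can lie inside such a run, was found on either strand in 49.3% of the windows of these genes and in 26.6% of all windows. CCGGAAGT, a motif of ETS factors, was in 16.9% against 3.89%, and AAGATGGC, a motif of YY1, in 11.3% against 2.75%. CACGTG, the E-box that MYC binds, was in 11.3% against 7.15%, and TATAAA in 9.86% against 13.6%. These matches describe the sequences only, and annotated starts can lie some bases away from the start a cell uses.

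Vehicle cultures held these messages at high and widely spread levels, compared here as FPKM and so per length of gene model. The median of the 80 genes was 165, 172 and 179 FPKM in vehicle replicates 1 to 3. Together the 80 genes took 5.12%, 5.56% and 5.79% of the FPKM sum of these libraries. The 6 highest genes took 19.3% to 19.5% of the genes' own sum in those libraries. Genes with longer models had lower levels (Spearman rho -0.38 across 80 genes of the same libraries, a description).

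Rpl41, which encodes the smallest ribosomal protein, was the highest, at 667, 667 and 706 FPKM. Rps26, a small-subunit protein at the messenger RNA exit channel, followed at 541, 595 and 665 FPKM, and Rps15 at 525, 546 and 515 FPKM. The vehicle values of Rpl41 lay above all those of Rps26 and Rps15, while Rps26 and Rps15 overlapped. Rplp0, the base of the P stalk that recruits elongation factors, was at 418, 431 and 462 FPKM, and Rpsa, which also has a form known as the laminin receptor, at 362, 422 and 470 FPKM. Rplp0 and Rpsa therefore could not be ordered beyond their spread.

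At the other end, Rpl21 was listed at 4.70, 4.39 and 4.44 FPKM, although its protein is an ordinary part of the large subunit. The next were Rpl22l1 at 8.36, 8.28 and 7.75 FPKM and Rpl7l1, a relative of Rpl7, at 10.6, 11 and 10.8 FPKM. These 3 lowest genes did not overlap one another in vehicle. Rpl35a (15.3, 18.4 and 11.7 FPKM), Rpl29 (20.7, 22.6 and 20.46 FPKM) and Rps15a (20.7, 21.8 and 23.9 FPKM) came next, with Rpl29 and Rps15a overlapping. Many of the 80 genes have copies of their sequence elsewhere: 79 had 50-base windows of transcript found also in other annotated genes, with a median of 47.6% of their windows. Over the 6 lowest genes that share ran from 6.37% in Rps15a to 65.6% in Rpl22l1, with 26.2% in Rpl21, and it was 85.4% in Rpl10, a highly expressed gene (Spearman rho with level 0.20 across the 80 genes, a description). Rpl29 and Rpl21 each shared windows with 82 other genes, of which 79 and 81 were pseudogenes. How the authors counted reads that fit several places is not given in the sources used here, so single levels of such genes are uncertain.

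**Figure D1:**
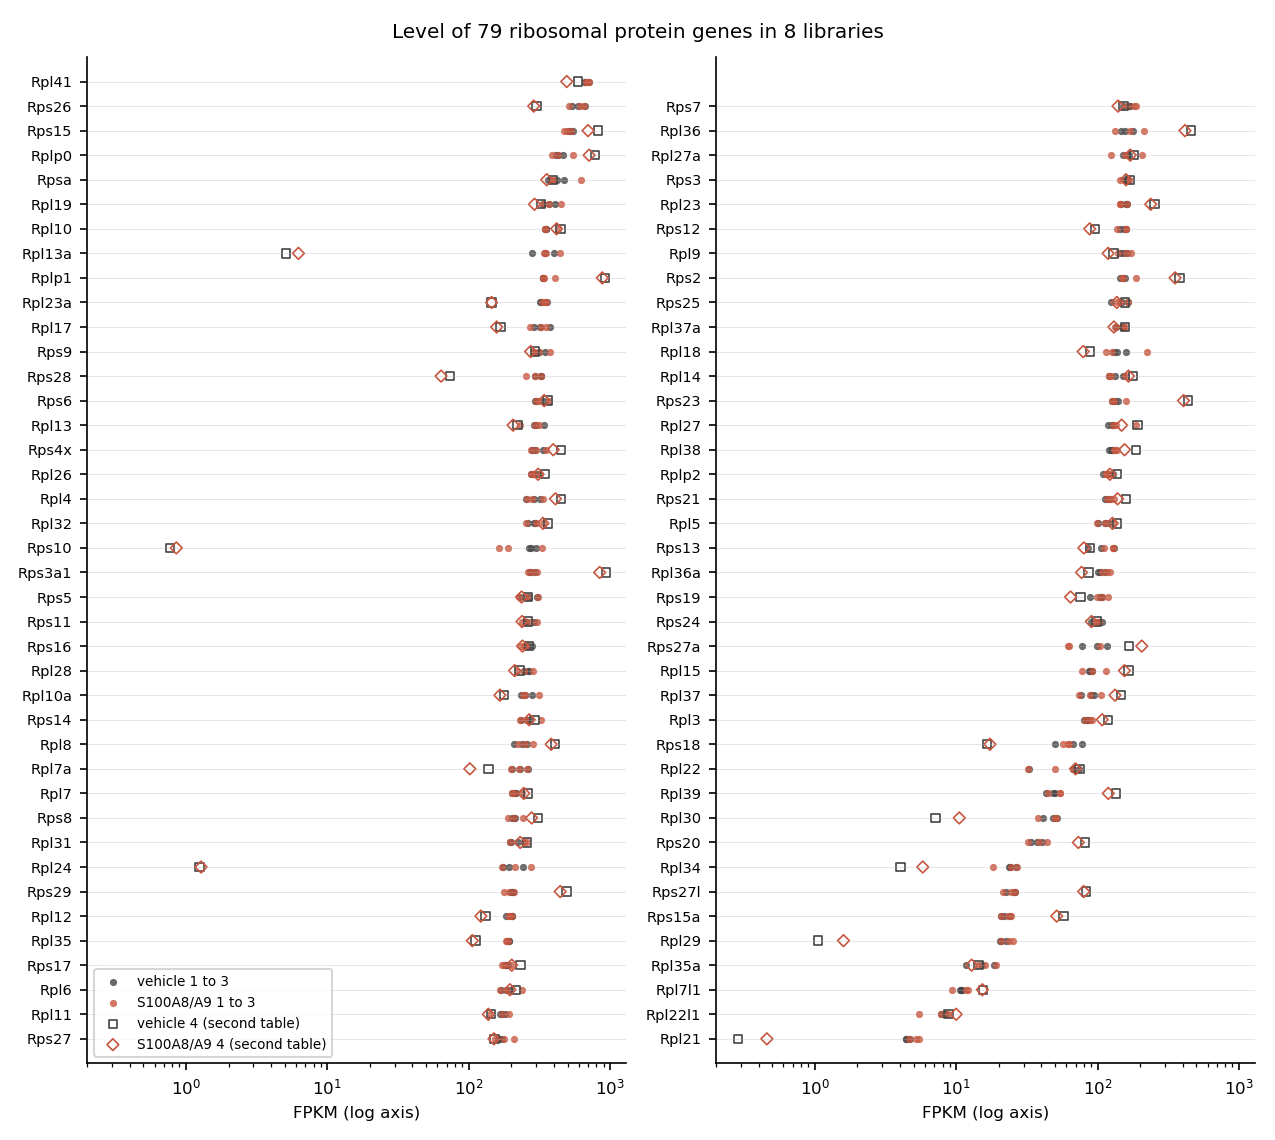
FPKM (log axis) of 79 of the 80 ribosomal protein genes, ordered by mean vehicle level from Rpl41 to Rpl21. Filled points are the 6 libraries of the first table and open symbols the 2 libraries of the second. Between 61 and 64 of the 80 genes reach 100 FPKM in a library of the first table, and Rps10, Rpl24, Rpl13a, Rpl29 and Rpl21 lie far lower in the second table.

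Paired relatives kept a fixed order in the libraries of the first table. Rpl22, a large-subunit protein that also regulates RNA, was above Rpl22l1 in all 6 libraries, as was Rpl7 (202, 216 and 214 FPKM in vehicle) above Rpl7l1. Rps27 stood at 165, 172 and 160 FPKM in vehicle, and its relative Rps27l, a target of p53, at 25.9, 22.4 and 25.6 FPKM. Rps4x, the X-linked copy, was at 280, 296 and 333 FPKM. Rpl36a stood at 101, 104 and 112 FPKM and Rpl36al, which the symbol rule does not cover, at 46.1, 42.3 and 46.7 FPKM.

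S100A8/A9 left no ribosomal protein gene past the test. In limma-trend on log2(FPKM + 1) over replicates 1 to 3, 0 of the 80 had an adjusted p (Benjamini-Hochberg) under 0.05, as had 0% of the 11387 genes tested. At an unadjusted p under 0.05 there were 0 of the 80 and 344 of all genes. When the replicate number entered the fit as a block term, 0 of 80 passed and 0.518% of all genes (59, of which 57 were higher), and the smallest adjusted p of a ribosomal protein gene was 0.585, for Rpl27. The median difference of the 80 genes (S100A8/A9 minus vehicle) was 0.032 on the log2 scale, beside 0.025 for all genes tested, and 53 genes were higher and 27 lower. The median standard error of a gene was 0.13 without the block and 0.065 with it, so differences of that size could not be told from 0 here.

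The genes did not move one way in the 3 pairs of the first table. In pair 1, 53 of 80 were lower with S100A8/A9, where 51.6% of all genes were lower, and the median difference was -0.034 log2 against -0.0064 for all genes; 27 were higher (all genes: 48.4%). In pair 2, 45 were higher (all genes: 51.6%) and 35 lower (all genes: 48.4%), with medians of 0.013 and 0.0063. In pair 3, 58 were higher (all genes: 66.7%), with medians of 0.093 and 0.079. The median of the 80 genes thus stayed within 0.03 log2 of that of all genes in each of these pairs, and its sign differed between pair 1 and the other two. Other genes at 100 FPKM or more in the vehicle library of a pair had medians of 0.015, 0.022 and 0.11 log2 in pairs 1 to 3, each above that of the 80 genes; these differences were not tested. Leaving out 1 library moved the median over all 3 pairs across 0: it was -0.045 without S100A8/A9 replicate 3, -0.00044 without vehicle replicate 1 and 0.098 without S100A8/A9 replicate 1.

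**Figure D2:**
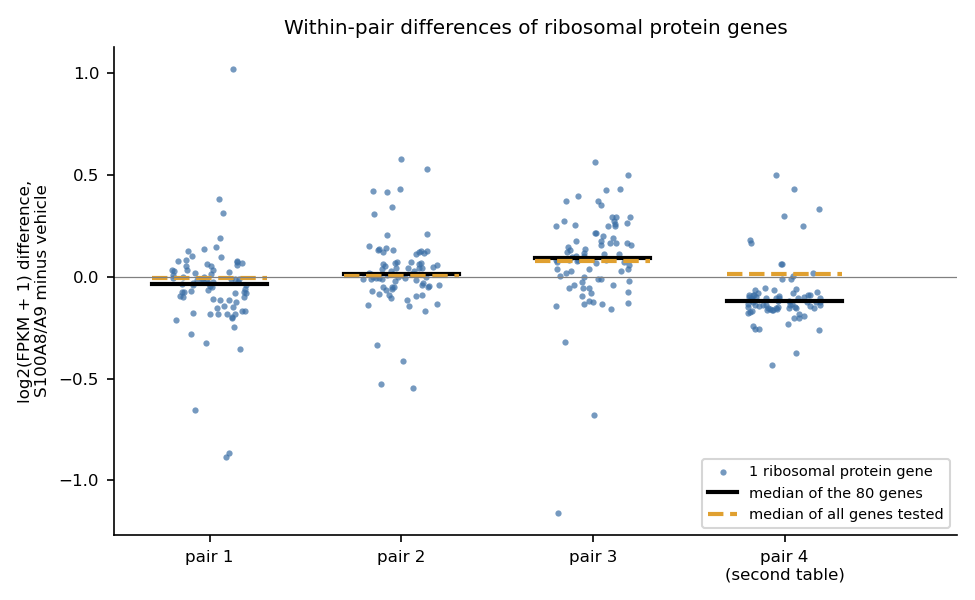
Difference in log2(FPKM + 1), S100A8/A9 minus vehicle, for each ribosomal protein gene (points) in the 4 pairs of equal replicate number. Black lines are medians of the 80 genes. Dashed lines are medians of all genes tested in pairs 1 to 3, and of all genes at 1 FPKM or more in both libraries in pair 4. The 2 lie close together in pairs 1 to 3 and apart in pair 4 (-0.12 and 0.015).

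Counted by pair, 9 of the 80 genes were higher in all 3 pairs (19.4% of all genes tested) and 6 were lower in all 3 (9.62% of all genes). The 9 were Rpl41, Rplp1, Rps6, Rps7, Rps2, Rpl27, Rpl38, Rps21 and Rpl36a, and the 6 were Rps15, Rps28, Rpl13, Rps16, Rpl7a and Rps27l; they are listed by this count and not by a test. Groups did not overlap for 2 genes that were higher, Rpl27 and Rpl38 (4.71% of all genes), and for 1 that was lower, Rps16 (1.94% of all genes). As a share of the 80 genes, each of these 4 counts lay below the share over all genes.

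Rpl38, a protein linked to the translation of homeobox messages, was at 126, 125 and 121 FPKM in vehicle and at 132, 131 and 136 FPKM with S100A8/A9. The means were 124 ± 2.7 and 133 ± 2.7 FPKM (SD, n = 3) in that order. The difference was 0.11 log2, with an SE of 0.090 without the block and 0.054 with it. It did not pass limma's test in either fit (adjusted p = 0.72 with the block). Rpl27, a large-subunit protein, was at 128, 119 and 126 FPKM in vehicle and at 136, 129 and 187 FPKM with S100A8/A9, with a difference of 0.57 log2 in pair 3 beside 0.084 and 0.12 in pairs 1 and 2. Rps16, a small-subunit protein next to the decoding site, was at 255, 262 and 280 FPKM in vehicle and at 244, 234 and 253 FPKM with S100A8/A9. In the second table all 3 were lower with S100A8/A9: Rpl38 went from 186 to 155 FPKM, Rpl27 from 192 to 148 FPKM and Rps16 from 266 to 240 FPKM. For Rpl38 and Rpl27 that is the opposite sign to pairs 1 to 3, and for Rps16 the same sign.

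Genes with roles outside the ribosome or in its quality control gave small differences as well. Rpl5 and Rpl11, which bind MDM2 when ribosome assembly fails, were at 100, 113 and 121 FPKM and at 166, 172 and 180 FPKM in vehicle. With S100A8/A9 they were at 98.4, 112 and 128 FPKM and at 143, 172 and 192 FPKM, and the groups overlapped. Rps6, the protein phosphorylated by S6 kinase, was at 294, 300 and 342 FPKM against 298, 313 and 371 FPKM. Rps19, the gene most often mutated in Diamond-Blackfan anaemia, was at 104, 87.8 and 108 FPKM against 107, 119 and 98.5 FPKM. Rpl13a, known for repressing inflammatory messages as part of the GAIT complex, was at 345, 279 and 404 FPKM against 339, 354 and 443 FPKM. In each of these the spread within the vehicle group was wider than the distance between the group means.

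Most of the genes were steadier than other abundant genes between the vehicle libraries. The median SD of log2(FPKM + 1) over vehicle replicates 1 to 3 was 0.092 for the 80 genes, 0.17 for 269 other genes at 100 FPKM or more and 0.15 for all genes tested. No test was made of these medians. Rplp1 had 334, 337 and 333 FPKM, the smallest spread at 0.0084 log2. In 9 genes the SD exceeded 0.2, among them Rpl22, Rps18, Rpl35a and Rps13.

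Rpl22 varied most. It was at 32.7, 67.0 and 73.7 FPKM in vehicle and at 67.3, 49.985 and 32.4 FPKM with S100A8/A9, so a value near 33 FPKM occurred once in each group. Rps13, a small-subunit protein, was at 106, 85.2 and 131 FPKM in vehicle and at 111, 128 and 129 FPKM with S100A8/A9, with overlapping groups. Rps27a, which encodes a fusion of ubiquitin and a small-subunit protein, was at 116, 77.6 and 99.6 FPKM in vehicle and at 62.5, 104 and 61.8 FPKM with S100A8/A9. It was lower in pairs 1 and 3 and higher in pair 2. With the block and without replicate 2 it was called lower (limma, adjusted p = 0.012), the only call of a ribosomal protein gene in any setting run. That setting leaves out the pair in which Rps27a was higher (0.42 log2) and rests on pairs 1 and 3 alone. The range of calls over all genes in such runs is given at the end. In the second table Rps27a was higher with S100A8/A9 (205 against 167 FPKM). Rps10 was at 298, 277 and 267 FPKM in vehicle and at 163, 189 and 328 FPKM with S100A8/A9. Rpl22 and Rps10 have 8 annotated transcripts each and Rps27a has 5; whether the library differences sit in particular transcripts was not tested.

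**Figure D3:**
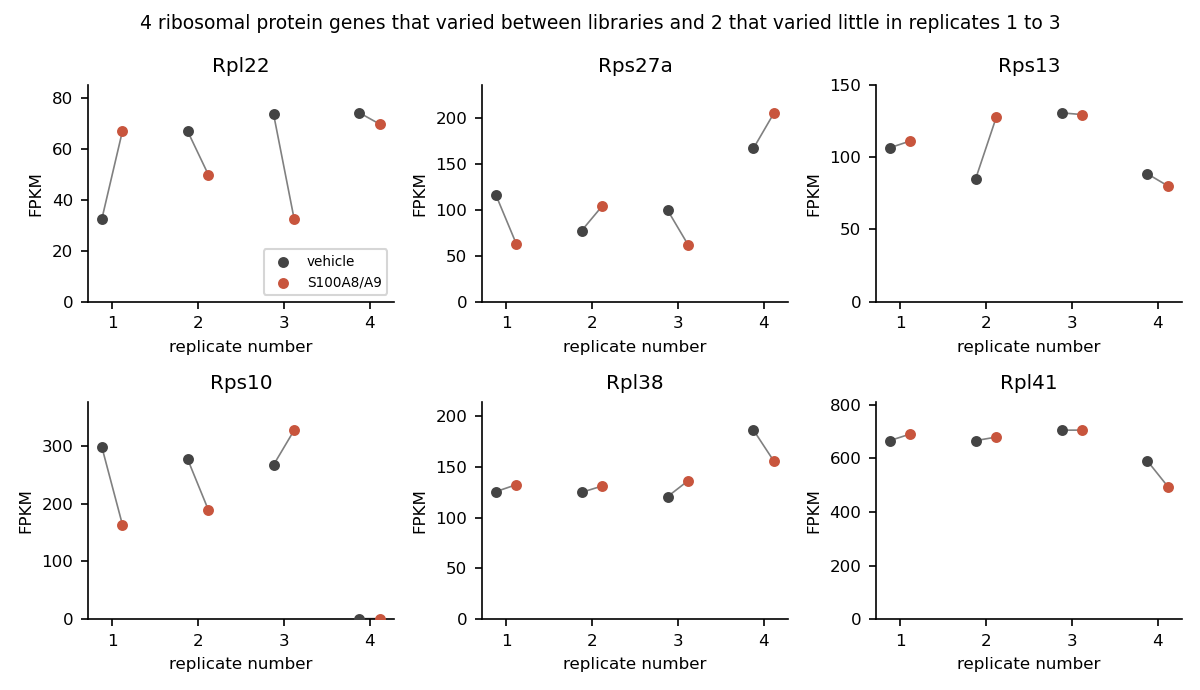
FPKM by replicate number for 4 genes that varied between libraries (Rpl22, Rps27a, Rps13, Rps10) and for Rpl38 and Rpl41, with lines joining vehicle and S100A8/A9 of the same number. Rpl22 is near 33 FPKM in vehicle replicate 1 and S100A8/A9 replicate 3 and at 49.985 FPKM or more elsewhere, while Rpl38 and Rpl41 are nearly level in replicates 1 to 3.

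The share of each library's FPKM sum taken by the 80 genes varied more between replicate numbers than between treatments. With S100A8/A9 it was 4.81%, 5.67% and 6.05% in replicates 1 to 3, beside the vehicle shares above. The means were 5.51% ± 0.63 and 5.49% ± 0.34 (SD, n = 3). The within-pair differences were -0.30, 0.11 and 0.26 percentage points and did not share a sign. In both groups replicate 1 had the lowest share and replicate 3 the highest. The summed FPKM of 12 macrophage markers ran the other way, at 6191, 4767 and 4040 in vehicle and at 6392, 5044 and 4321 with S100A8/A9. Most of it was Lyz2. Without Lyz2 the sum was 1178, 978 and 912 in vehicle and 1246, 994 and 1031 with S100A8/A9, where replicate 2 was lowest. The sum of 17 dendritic cell markers also fell, at 5881, 4273 and 3896 in vehicle and at 5921, 4285 and 4235 with S100A8/A9. The mean log2(FPKM + 1) of those 17 was lowest in replicate 2 of both groups (4.48, 4.23 and 4.32 in vehicle, 4.48, 4.20 and 4.35 with S100A8/A9). The summed FPKM of 8 erythroid markers was lowest in replicate 1 and highest in replicate 3 of both groups (3.21 and 129 in vehicle, 4.63 and 115 with S100A8/A9). Their part in the share was not tested. In bulk RNA, fewer cells of a type and less of its RNA per cell cannot be told apart.

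**Figure D4:**
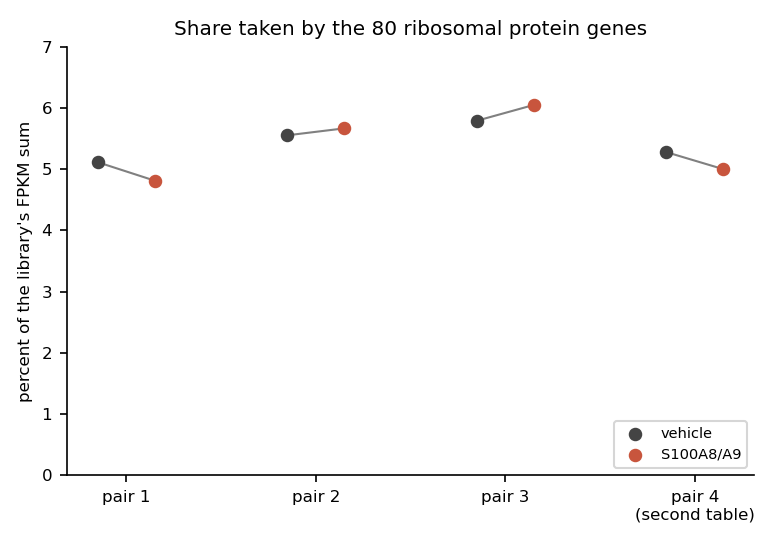
Percent of each library's FPKM sum taken by the 80 ribosomal protein genes, with lines joining the libraries of a pair. The share is 5.12% to 5.79% in vehicle replicates 1 to 3 and 4.81% to 6.05% with S100A8/A9, and goes down in pairs 1 and 4 and up in pairs 2 and 3.

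The labelled cell type was checked against markers. Of 17 dendritic cell markers, 13 were tested. Itgax was at 47.2 to 66.9 FPKM, Ccr7 at 141 to 227 FPKM and Cd74 at 2530 to 3823 FPKM in the first table. Flt3 stayed under 1 FPKM there and Cd209a was listed at 0, while Zbtb46, which marks conventional dendritic cells, was at 2.13 to 3.62 FPKM. Macrophage genes were high as well, with Lyz2 at 3128 to 5146 FPKM.

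Pair 4, from the separately made table, went one way. Of the 80 genes, 69 were lower with S100A8/A9. Of the 11413 genes at 1 FPKM or more in both libraries of that table, called all genes here, 45.6% were lower. Rps10 and Rpl21 lay below that level and are still counted among the 80. The median difference was -0.12 log2, against 0.015 for all genes and -0.036 for 344 other genes at 100 FPKM or more, 65.4% of which were lower. The 80 genes thus had a lower median than other abundant genes in all 4 pairs, and a lower one than all genes in pairs 1 and 4. Small-subunit genes had a median of -0.14 log2 (29 of 32 lower), large-subunit genes -0.11 (37 of 45) and the P stalk genes -0.13 (3 of 3). The median ratio was 0.92, and the share of the FPKM sum went from 5.28% to 5.003%. Of 12 macrophage markers, 4 were lower in the same pair. Lyz2, the most abundant, went from 26668 to 23928 FPKM, while the sum of the other 11 was 1545 and 1662 FPKM; their part in the result was not tested. This is 1 library against 1, so there is no replicate check and no test.

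Among genes named after their values were seen, Rpl7a had the lowest log2 difference in pair 4, -0.43, from 138 to 102 FPKM, and Rpl37a went from 156 to 130 FPKM. Rps15 went from 826 to 699 FPKM, Rplp0 from 780 to 711 FPKM and Rpl41 from 590 to 494 FPKM. The reads behind these values, computed from FPKM and gene model length, ranged from 31 to 41240 per gene in vehicle replicate 4, with a median of 11260 and 8 genes under 1000. The genes that were higher in that pair were Rpl30, Rpl34, Rpl29, Rps27a, Rpl13a, Rpl21, Rpl22l1, Rps10, Rps18, Rpl24 and Rpl23a.

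Those 11 genes overlap largely with the genes that the second table lists low. Vehicle replicate 4 divided by the mean of vehicle replicates 1 to 3 had a median of 1.08 over the 80 genes, but 10 genes were under 0.5 and 10 over 2. Of the 10 under 0.5, 9 were higher with S100A8/A9 in pair 4 and 1, Rps28, was lower. Of the 70 others, 68 were lower, the exceptions being Rpl22l1 and Rps27a. The vehicle replicate 4 value enters both measures, so these counts are a description. Rps10 was at 0.773 FPKM in the second table (57 reads) against 267 to 298 FPKM in vehicle of the first. Rpl24 was at 1.25 FPKM (41 reads) against 174 to 243 FPKM, and Rpl13a at 5.09 FPKM against 279 to 404 FPKM.

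Each of those 3 genes overlaps another annotated gene on its own strand. Exons of 2 other genes, RPS10-NUDT3 the most, together cover 28.7% of the exon bases of Rps10. Those of 3 other genes, Gm45713 the most, together cover 35.4% of the exon bases of Rpl13a. Gm28037 alone covers 47.0% of those of Rpl24. In the first table RPS10-NUDT3, Gm45713 and Gm28037 were at 0 to 0.815 FPKM. Overlap of over 20% of exon bases was also found in 6 of the 70 genes at 0.5 or more of their first-table level, such as Rpl35 (66.2%), and in 5 of the 10 under 0.5; its part in the difference between the tables was not tested. Rpl29 (1.06 FPKM) and Rpl21 (0.286 FPKM) were the other 2 under 0.1 of their first-table level. They have no such partner over 20% of their exon bases, and each shared windows with 82 other genes. Rpl7a and Rpl7l1 shared windows with more genes and were at 0.596 and 1.43 of their first-table level. The median number of sharing genes was 11.5 in the 10 genes under 0.5 and 11 in the 70 others. Its Spearman rho with vehicle replicate 4 over the first-table level was -0.087 across the 80 genes, a description. The part of sequence relatives in the difference between the tables was not tested. Gene models with -ps in an Rps or Rpl symbol summed to 756 to 961 FPKM in the first table (300 models). In the second, which lists 173 of such models, they summed to 3471 and 3125 FPKM. Fau, a ubiquitin-like fusion that the symbol rule does not cover, was at 377 to 419 FPKM and 393 FPKM. At the upper end, Rps3a1 was at 271, 272 and 297 FPKM against 938 FPKM and Rps27l at 25.9, 22.4 and 25.6 FPKM against 82.9 FPKM. The order of the 80 genes was nearly fixed within a table (Spearman rho 0.96 to 0.99 in the first and 0.99 in the second) and less so across tables (0.66 to 0.70).

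**Figure D5:**
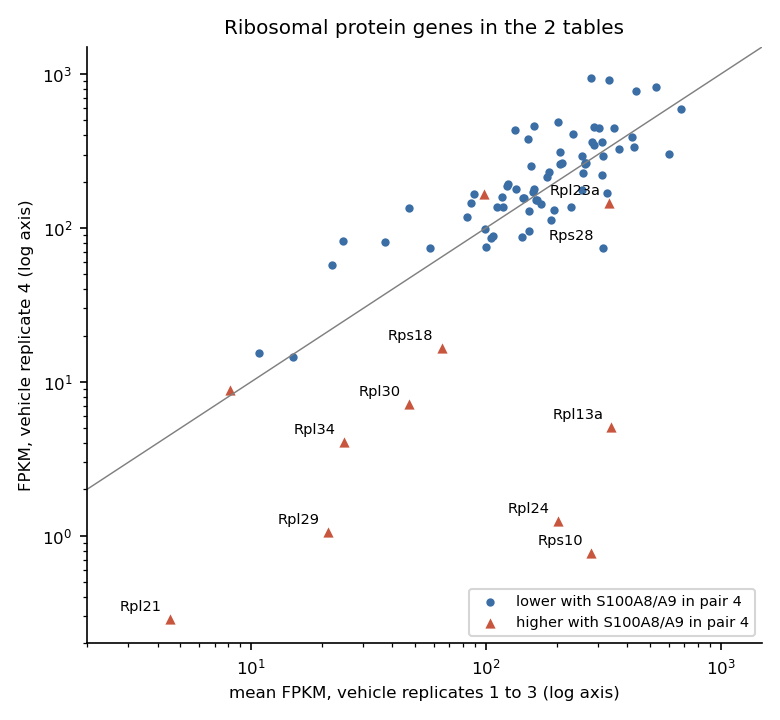
FPKM of the 80 genes in vehicle replicate 4 (second table) against their mean in vehicle replicates 1 to 3 (first table), both log axes, with the line of equality. Triangles are the 11 genes that were higher with S100A8/A9 in pair 4; labels mark the 10 genes listed at under 0.5 of their first-table level.

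Genes that serve the ribosomal proteins were measured next, in lists chosen with earlier results of these data known. None of their genes was called without the block. Among 28 translation factors and related genes whose messages carry a TOP tract, the median difference over replicates 1 to 3 was 0.029 log2 (20 of 28 higher), and 25 of 28 were lower in pair 4 with a median of -0.054. Eef1a1, the elongation factor that delivers aminoacyl-tRNA, was at 1888, 2043 and 2381 FPKM in vehicle and at 1881, 2031 and 2531 FPKM with S100A8/A9. Ribosomal proteins outside the symbol rule, some of which are also in that list (Fau and Rack1 among them), had a median of 0.034 log2 over 6 genes, and 5 of 6 were lower in pair 4. Both lists thus had the sign of the ribosomal protein genes in pair 4. So had the 344 other genes at 100 FPKM or more (65.4% lower, median -0.036 log2), which include genes of these lists such as Eef1a1. Of all genes in that pair 45.6% were lower. The differences between the lists, and the part of expression level in them, were not tested.

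Ribosome assembly factors did not follow in pair 4. Of 54 tested, 33 were higher over replicates 1 to 3 (median 0.028 log2) and 21 were lower in pair 4 (median 0.034). Eif6, which keeps the large subunit from joining too early, had the highest vehicle mean among them. It was at 21.7, 25.7 and 24.4 FPKM against 21.0, 27.1 and 29.2 FPKM. The assembly factors thus lay well below 100 FPKM, and the part of level in this contrast was not tested. RNA polymerase I genes (20 tested) had a median of -0.0020 log2. Dedicated chaperones (13 tested) had 0.049, and 10 of 13 were lower in pair 4. The small-nucleolar-RNA host genes (10 tested) had 0.062, with Gas5, itself a TOP message, at 30.7, 38.4 and 42.2 FPKM against 31.4, 41.3 and 47.6 FPKM.

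Regulators of ribosomal protein synthesis gave 0 calls with and without the block. The median was 0.0087 log2 for 26 genes of mTORC1 and translation control, 0.040 for 9 of the MYC network and 0.036 for 13 of ribosome quality control and p53. Mtor was at 7.26, 7.36 and 7.98 FPKM against 7.31, 7.43 and 7.92 FPKM. Larp1 was at 25.2, 29.6 and 29.7 FPKM against 28.0, 30.9 and 33.7 FPKM, and Myc at 12.9, 17.2 and 13.2 FPKM against 10.6, 13.6 and 16.1 FPKM. The exception among the lists was the 9 interferon-linked repressors of translation, 6 of which rose with the block (0.518% of all genes were called) and 0 of which passed without it. The median of the 9 was 0.84 log2 over replicates 1 to 3 and 0.18 log2 in pair 4. With the block and median-of-ratios, upper-quartile or quantile scaling, 1 of the 6 was still called, Ifit1. With the block over all 8 libraries 0 of the 9 were called, and the limma adjusted p of Ifit1 was 0.25. Ifit1, which binds foreign-looking 5′ ends of RNA, was at 9.42, 9.93 and 4.65 FPKM against 36.1, 32.6 and 13.8 FPKM, and its groups did not overlap (limma with the block, adjusted p = 0.0092).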

How the data were processed

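The authors' deposited values are FPKM, a unit inferred from the values, in 2 tables: replicates 1 to 3 of both groups (55450 genes) and replicate 4 of both (24848 genes, 24388 in both tables). Tools listed without a role in the submitters' processing notes are HISAT2, Subread with featureCounts, and DESeq2 1.34.0, and the build is mm10; no strand is stated. Replicate 4 implied 31890000 and 33406000 reads; the depth of replicates 1 to 3 is unknown. The members and gene lists were chosen with earlier results of these data known.

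The test was limma-trend (limma 3.58.1, R 4.3.3), two-sided, on log2(FPKM + 1) of replicates 1 to 3, over the 11387 genes that reached 1 FPKM in 3 or more libraries, adjusted over all of them; such differences understate those of low genes. All 80 members passed. The script was tested on simulated data. Libraries of the same replicate number deviated together from their group means (correlations 0.595, 0.254 and 0.52). Different numbers gave -0.531 to -0.01, but deviations from a group mean sum to 0, so these values are not separate support. Equal numbers were therefore treated as pairs in the within-pair differences and the block fit, and not in the fit without the block. Alternatives were other scalings, pseudocounts, filters, all 8 libraries, the replicate block and leaving out libraries. Shared 50-base windows and exon overlaps were computed from the mm10 GENCODE annotation.

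Named were the 6 highest and 6 lowest genes by mean vehicle FPKM, the 5 largest and 5 smallest differences, the 5 largest vehicle SDs, any called gene, 13 fixed genes, and members with a protein-coding relative. For each list the highest gene or the one with the smallest p could be named; other names followed the values. Markers of T and NK cells, B cells, neutrophils, mast cells and stroma were summed too: in the first table T and NK cell markers summed to 11.5 to 20.8 FPKM, B cell markers to 6.12 to 8.52, neutrophil markers to 124 to 226, mast cell and basophil markers to 1.43 to 7.51 and stromal markers to 0.502 to 1.40. Some results are not reported here.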

Additional observations from a re-analysis of the deposited data

Results flagged for a closer look

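In 2 genes 1 of the 4 within-pair differences stood apart from the other three, by a gap that, as a part of the range, exceeded Dixon's critical value for 4 values; 39 values were examined this way, and chance marks about 1 in 20. Rpl41 differed by -0.256 log2 in pair 4, against 0.053, 0.028 and 0.00072 in pairs 1 to 3. Rpl36a differed by -0.164 log2 in pair 4, against 0.10, 0.15 and 0.12. Pair 4 is the pair of the separately made table, so the pair and the table cannot be told apart.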

How the results depend on the processing

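The number of genes called over the whole table was 0 without the replicate block under each scaling, pseudocount and filter run. With the replicate block it was 59, with a common sum 39, and 3 with median-of-ratios factors, 3 with factors from the upper quartile and 3 after quantile normalization; the cause was not tested. Leaving out 1 library gave 0 to 1 calls without the block (1 without vehicle replicate 2), and leaving out 1 replicate number gave 7 to 98 with it (40 without replicate 1). Ribosomal protein genes called ranged from 0 to 1 in those runs, the 1 being Rps27a, with 0 in 23 of 24 alternative settings. Their median difference ranged from -0.045 (without S100A8/A9 replicate 3) to 0.098 (without S100A8/A9 replicate 1) when 1 library was left out, and was below 0 in 7 of the 24 settings, among them quantile normalization (-0.016, with 32 of 80 higher) and all 8 libraries (-0.0074). Scaling shifted the median of all genes by less than 0.1 log2. The difference in the ribosomal protein share of summed FPKM ranged from -0.247 to 0.372 percentage points. Of 887 values of the 37 named genes, 843 moved by less than their spread, 43 by more, 1 passed the test and 83 had the other sign. The depth of replicates 1 to 3 is unknown, which limits what can be said of the low genes.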
